A study of Mus musculus with 10 samples.

Results

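Keratins are the intermediate filament proteins of epithelial cells. Filaments form only when a type I keratin pairs with a type II keratin, and cells usually make both partners together. Krt5 with Krt14 marks the basal layer of stratified epithelia, Krt8 with Krt18 marks simple, single-layered epithelia, and in the tooth germ keratins are carried by the enamel organ and the oral epithelium around it while the dental papilla and follicle are mesenchyme. IGF1 (insulin-like growth factor 1) is a secreted ligand of a receptor tyrosine kinase.

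The 8 epithelial keratin genes described here were the rows of the count table whose GENCODE mouse release 21 symbol was Krt5, Krt14, Krt15 or Krt17 (4 basal keratins), Krt8, Krt18 or Krt19 (3 simple keratins) or Krt23 (1 other). They are 8 of 18381 genes in the table, and all 8 passed the filter on low counts that left 14504 genes for testing. RNA was sequenced from 10 first lower molars of wild type C57BL/6JOlaHsd mouse embryos at embryonic day 14, each cultured for 6 h in a hanging drop. The 5 IGF1 teeth received mouse recombinant IGF1 at 750 ng/ml, and the 5 control teeth received the same volume of the carrier, PBS with BSA. Embryos 1, 2, 3, 4 and 6 each gave 1 tooth to either treatment, with left and right sides balanced, so that IGF1 was compared with control within embryos.

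Libraries held 2845773 to 8403151 counts in control and 3456634 to 8763113 in IGF1, and both teeth of embryo 1 were the shallowest of their group. Epithelium was present in every tooth: Epcam, an epithelial adhesion molecule, stood at 112.5 ± 9.85 CPM (counts per 1000000 of the TMM-normalised library size; mean ± SD, n = 5) in control and 109.6 ± 24.6 in IGF1. The summed CPM of 24 tested and 1 untested epithelial markers other than keratins ran from 1175 to 1412 in control and from 1071 to 1456 in IGF1, against 12047 to 14294 and 10845 to 14073 for 20 mesenchymal markers. Each library is a whole tooth, so fewer cells of a type and less RNA per cell cannot be told apart in any value below.

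Of the 8 keratins, Krt5 rose, Krt23 fell and 6 did not pass the test, which was edgeR's quasi-likelihood test with the embryo as a block and a Benjamini-Hochberg adjusted p under 0.05 over all genes tested. Among all genes tested 6.72% were higher, 4.76% lower and 11.5% changed in either direction. Both called keratins, and Krt8, moved one way in all 5 embryos, which 24.2% of all genes tested did. For Krt23 alone the 5 IGF1 and 5 control teeth did not overlap in CPM, against 7.25% of all genes tested. With so few members these counts are descriptions, and the values of each gene follow.

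Krt5 and Krt23 were the only members called, in opposite directions, so the 250 bases before their RefSeq transcription start are shown for reference (GRCm38.p6, 5′ to 3′ on the gene's own strand). The Krt5 window is chr15:101712906-101713155 on the minus strand and the Krt23 window is chr11:99493121-99493370 on the minus strand. The first ends 7 bases before the GENCODE start of Krt5, and the second reaches 17 bases past that of Krt23. Capitals mark CACCC or its reverse complement GGGTG, the letters of a KLF (Krüppel-like factor) motif.
Krt5: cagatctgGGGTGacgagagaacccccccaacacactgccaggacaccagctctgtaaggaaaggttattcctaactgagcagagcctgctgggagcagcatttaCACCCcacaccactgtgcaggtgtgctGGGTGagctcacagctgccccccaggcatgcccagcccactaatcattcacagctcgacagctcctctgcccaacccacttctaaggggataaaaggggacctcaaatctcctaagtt
Krt23: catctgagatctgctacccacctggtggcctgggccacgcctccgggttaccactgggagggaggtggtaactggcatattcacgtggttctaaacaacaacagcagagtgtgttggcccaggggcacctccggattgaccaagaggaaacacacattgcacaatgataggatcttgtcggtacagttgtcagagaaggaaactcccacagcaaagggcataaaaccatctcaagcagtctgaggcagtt
The Krt5 window holds 3 such matches, which lie at 242, 145 and 118 bases before the start, and the Krt23 window holds none. They are in the windows of members that were not called as well, with 2 matches for Krt8 and 1 for Krt18. CACCC or GGGTG occurs in 52% of 32851 RefSeq windows of this length, searched on both strands. TATAAA, the GC box GGGCGG, the AP-1 letters TGANTCA and the AP-2 letters GCCNNNGGC are in neither printed window on either strand, and they occur in 12.4%, 32.7%, 6.75% and 13.7% of all windows. The Krt18 window holds the AP-2 letters once, at 83 bases before the start. None of these motifs overlaps another in the printed windows, and a match of letters is not a binding site.

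Krt5, the type II keratin of basal cells, lies at chr15:101707070-101712898 on the minus strand (GRCm38). It stood at 997, 569, 697, 893 and 722 CPM in the control teeth of embryos 1, 2, 3, 4 and 6, and at 1196, 854, 1073, 939 and 1105.5 CPM in the IGF1 teeth of the same embryos. The IGF1 tooth was the higher in every pair, by the least in embryo 4, and the groups overlap because 2 IGF1 teeth are below the control tooth of embryo 1. The mean was 775.5 ± 169 CPM in control and 1033 ± 137 in IGF1, a 1.35-fold rise (log2 fold change 0.43 ± 0.09 SE, edgeR adjusted p = 0.0126). The call was lost when embryo 6 was left out (adjusted p = 0.0646, edgeR) and in the unpaired fit without the replicate block (adjusted p = 0.107, edgeR). Of the 31-base stretches of Krt5 transcripts, 15.8% occur in another gene too, most often in Krt6a (9.46%), which had 12579 counts over 10 teeth. How the counting divided reads from such stretches was not tested.

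Krt14, the type I partner of Krt5, lies at chr11:100203162-100207548 on the minus strand. Its CPM in embryos 1, 2, 3, 4 and 6 was 519, 298.5, 394, 515 and 437 in control and 519, 339, 429.7, 389.6 and 523 in IGF1. The IGF1 tooth was lower in embryo 4 and level or higher in the others, and the groups cover nearly the same range. The log2 fold change was 0.03 ± 0.09 SE (edgeR adjusted p = 0.862), and its sign turned to -0.03 without embryo 6 and to -0.005 without embryo 2. Krt14 shares 29.2% of its 31-base stretches with other genes, most with Krt16 (18.2%), which itself had only 438 counts over the 10 teeth. Of the stretches of Krt17, 11.8% occur in Krt14, and Krt17 had 20142 counts over the control teeth and 20811 over the IGF1 teeth.

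Krt15, a type I keratin of basal and epithelial progenitor cells, lies at chr11:100131758-100135928 on the minus strand. Its CPM was 199, 187, 152, 213 and 179 in the control teeth and 285, 153, 251, 289 and 336 in the IGF1 teeth, in the same order of embryos. In 4 embryos the IGF1 tooth was above every control tooth, and in embryo 2 it was below its own control, which alone makes the groups overlap. The log2 fold change of 0.46 ± 0.14 SE was as large as that of Krt5 but did not pass the test (edgeR adjusted p = 0.054). It passed without embryo 2 (log2 fold change 0.65, edgeR adjusted p = 0.002) and with limma-voom (adjusted p = 0.0484).

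Krt17, a type I keratin of epithelial appendages that is also induced on injury, lies at chr11:100256217-100261029 on the minus strand. It was at 873, 451, 594, 702 and 688 CPM in control and at 690, 488, 615, 573 and 698 CPM in IGF1. The teeth of embryos 1 and 4 were lower with IGF1, those of embryos 2, 3 and 6 slightly higher, and the groups overlap. Its log2 fold change was -0.09 ± 0.08 SE (edgeR adjusted p = 0.548), and 15.8% of its 31-base stretches occur in other genes, most in Krt14 (11.8%).

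**Figure D1:**
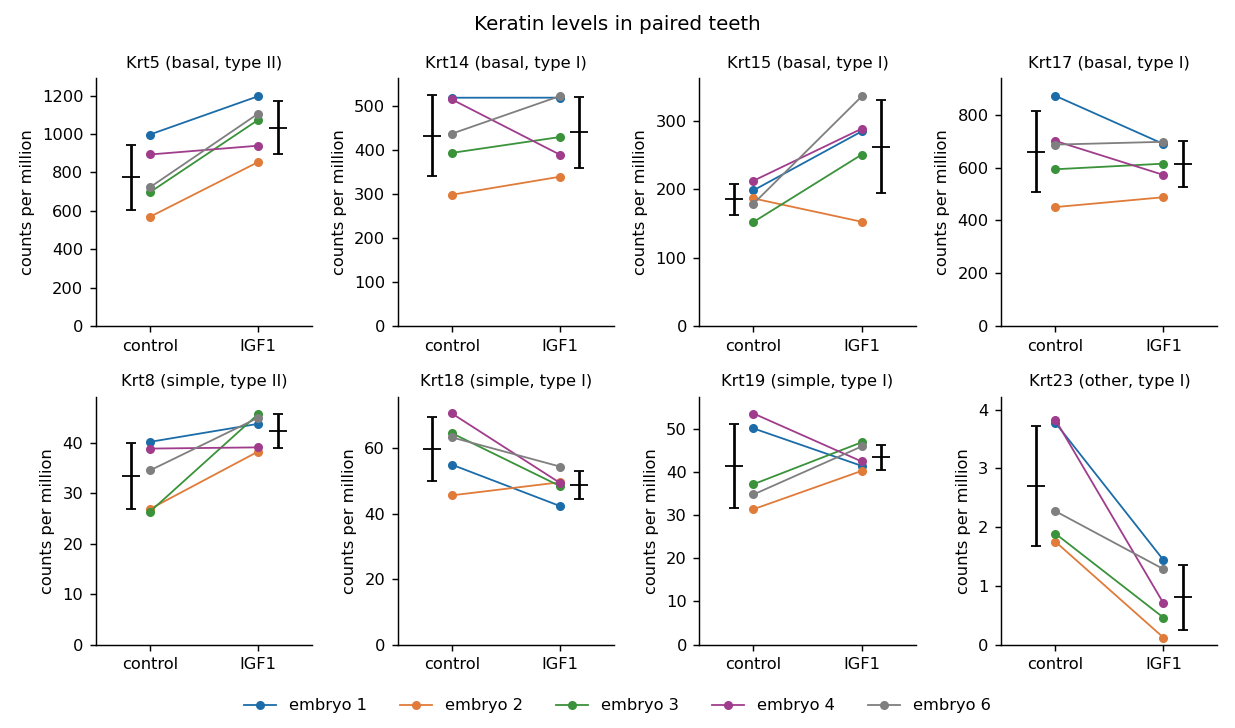
CPM of each of the 8 keratins (vertical axis, linear from 0) in the control and IGF1 tooth of each embryo, joined by a line; black marks show the group mean and SD (n = 5). All lines of Krt5 and Krt8 rise, all lines of Krt23 fall, and the other 5 genes have lines in both directions.

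The simple keratins were scarcer. Krt8, their type II member, lies at chr15:101996698-102004482 on the minus strand, and its start is 23698 bases from that of Krt18, its type I partner, which is read in the opposite direction at chr15:102028180-102032027 on the plus strand. Krt8 stood at 40.2, 26.9, 26.3, 38.9 and 34.5 CPM in control and at 43.8, 38.3, 45.7, 39.1 and 45.0 CPM in IGF1. It was higher with IGF1 in 5 of 5 embryos, by almost nothing in embryo 4, and the groups overlap at the control teeth of embryos 1 and 4. The log2 fold change of 0.37 ± 0.12 SE did not pass the test (edgeR adjusted p = 0.0624). It passed only without embryo 4 (adjusted p = 0.0492, edgeR), among the alternatives tried. Of the 31-base stretches of Krt8, 36% are shared with other genes, 32.2% with the pseudogene Krt8-ps, which has no row in the table used here.

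Krt18 was lower with IGF1 in most pairs. Its CPM was 55.0, 45.6, 64.6, 70.6 and 63.3 in control and 42.3, 49.6, 48.4, 49.4 and 54.4 in IGF1. The IGF1 tooth was lower in 4 embryos and higher in embryo 2, and the groups overlap. The log2 fold change of -0.28 ± 0.10 SE did not pass (edgeR adjusted p = 0.0918), though it did without embryo 2 (edgeR adjusted p = 0.0242). It shares 11.4% of its 31-base stretches, most with Gm5200 (9.31%), which also has no row.

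Krt19, the type I keratin that lacks the tail domain and is found in simple and some stratified epithelia, lies at chr11:100140810-100148665 on the minus strand. It was at 50.2, 31.4, 37.2, 53.6 and 34.8 CPM in control and at 41.5, 40.3, 46.9, 42.5 and 46.0 CPM in IGF1. The IGF1 teeth all lay inside the control range, lower than their controls in embryos 1 and 4 and higher in the other embryos. Its log2 fold change was 0.11 ± 0.12 SE (edgeR adjusted p = 0.638). Only 0.517% of its 31-base stretches are shared.

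Krt23, a type I keratin of less settled function, lies at chr11:99477974-99493137 on the minus strand and was by far the rarest member. It had 11, 12, 16, 27 and 15 counts in the control teeth and 5, 1, 4, 5 and 9 counts in the IGF1 teeth, summing to 81 and 24. In CPM these were 3.78, 1.75, 1.89, 3.83 and 2.27 against 1.44, 0.119, 0.459, 0.706 and 1.29. Every IGF1 tooth was below every control tooth. The fall was 3.64-fold (log2 fold change -1.86 ± 0.41 SE, edgeR adjusted p = 0.0145), and none of its 31-base stretches is shared with another gene. The call was lost without embryo 4 (edgeR adjusted p = 0.0709), the control tooth with the most counts. The DESeq2 Wald test gave Krt23 no adjusted p.

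**Figure D2:**
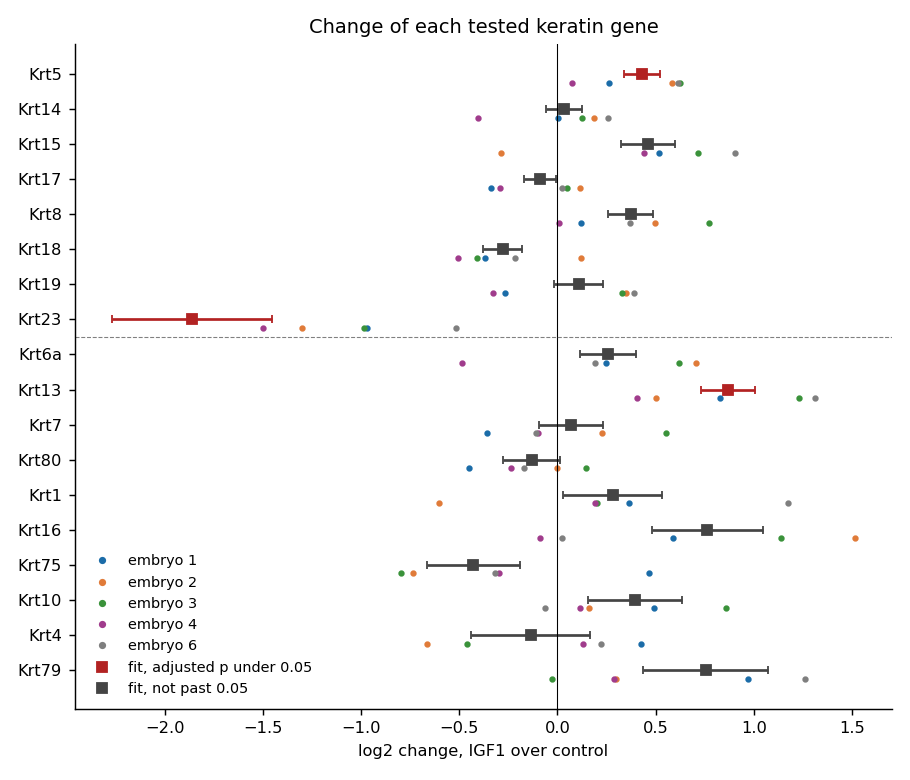
Log2 change, IGF1 over control (horizontal axis), of the 8 members above the dashed line and of the 10 other keratin genes tested below it. Squares with bars are the edgeR fold change and its SE, red where the adjusted p is under 0.05 (Krt5, Krt23 and Krt13); dots are single embryos on the log2(CPM + 1) scale, which shrinks the change of scarce genes such as Krt23 towards 0.

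Levels between genes were compared per length, as CPM per kb of the union of GENCODE exons. In control teeth the order was Krt17 (426 ± 99.8, SD, n = 5), Krt5 (353 ± 77.1), Krt14 (246 ± 52.4), Krt15 (105 ± 12.8), Krt18 (41.6 ± 6.77), Krt19 (22.3 ± 5.30), Krt8 (17.0 ± 3.33) and Krt23 (1.73 ± 0.653). The 4 basal keratins were thus all above the 3 simple keratins, and Krt23 was below them all. Neighbours in this order whose control teeth overlap are Krt17 with Krt5, Krt5 with Krt14, and Krt19 with Krt8; with the length of the longest coding transcript the order was the same, and Krt18 and Krt19 overlapped as well.

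With IGF1 the level of Krt5 was 470 ± 62.2 CPM per kb and that of Krt17 395 ± 56.2. Krt17 was above Krt5 in 5 of 5 control teeth and in 0 of 5 IGF1 teeth. The other levels in IGF1 were 250.4 ± 45.8 for Krt14, 149 ± 38.8 for Krt15, 34.0 ± 3.0 for Krt18, 23.4 ± 1.56 for Krt19, 21.6 ± 1.75 for Krt8 and 0.512 ± 0.355 for Krt23, and their order was as in control. The 8 members together held 0.220% ± 0.0464 (SD, n = 5) of all counts in control and 0.247% ± 0.0377 in IGF1, from 7965 to 21872 counts a tooth. The simple keratins held 0.0135% ± 0.00228 and 0.0134% ± 0.00082.

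**Figure D3:**
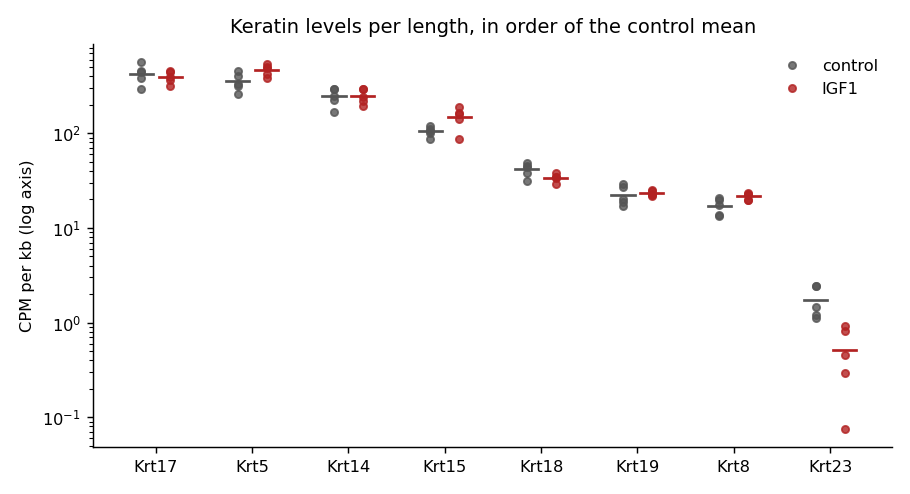
CPM per kb of exon (log axis) of the 8 keratins in order of the control mean; dots are teeth, grey for control and red for IGF1, and bars are group means. Krt5 and Krt17 trade places between the groups, and every tooth of Krt23 lies under every tooth of the other keratins.

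Partners of either pair differed in their change in every embryo, the type I gene always being the lower. Such a fall was not particular to these pairs: Krt17 was above Krt5 per length in 5 of 5 control teeth and in 0 of 5 IGF1 teeth. Krt5 and Krt8 were each higher with IGF1 in 5 of 5 embryos, so a partner ratio is not independent of the change of its type II gene. Per length, Krt14 over Krt5 was 0.651, 0.656, 0.706, 0.721 and 0.757 in the control teeth of embryos 1, 2, 3, 4 and 6, and 0.542, 0.497, 0.501, 0.519 and 0.591 in the IGF1 teeth. The groups did not overlap, with means of 0.698 ± 0.0448 (SD, n = 5) and 0.530 ± 0.0386. How often ratios of other genes separate the groups was not computed, and the 7.25% given above is for CPM of single genes. On the log2(CPM + 1) scale Krt14 over Krt5 changed by -0.40 ± 0.09 (SD over embryos), lower in 5 of 5 embryos. This change varied less between embryos than the change of Krt14 or of Krt5 alone, whose SDs were 0.26 and 0.25. That did not hold for Krt18 over Krt8, whose SD was 0.32, against 0.24 for Krt18 and 0.30 for Krt8 alone.

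Krt18 over Krt8 was 1.86, 2.31, 3.34, 2.48 and 2.50 in control and 1.32, 1.76, 1.45, 1.72 and 1.65 in IGF1, again without overlap. The means were 2.50 ± 0.537 and 1.58 ± 0.191, and the change of the log2 ratio was -0.63 ± 0.32 (SD over embryos), lower in 5 of 5 embryos and deepest in embryo 3. An exact two-sided sign-flip test over the 5 embryos gave p = 0.062 for either ratio, which is the smallest p that this test allows with 5 pairs, and 0.062 after Benjamini-Hochberg adjustment over the 2 ratios, so this test could not pass 0.05 here. Neither Krt14 nor Krt18 nor Krt8 was called by itself. The part that shared sequence with Krt16, Krt17, Krt6a, Krt8-ps or Gm5200 has in these ratios was not tested.

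Summed over the 6 type I and 2 type II members, the type I to type II ratio per length was 2.19, 2.26, 2.30, 2.22 and 2.48 in control and 1.68, 1.59, 1.65, 1.81 and 1.90 in IGF1. The mean went from 2.29 ± 0.113 to 1.73 ± 0.127 (SD, n = 5), lower in 5 of 5 embryos. Krt5 supplies most of the type II sum, so this ratio is not independent of the rise of Krt5.

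**Figure D4:**
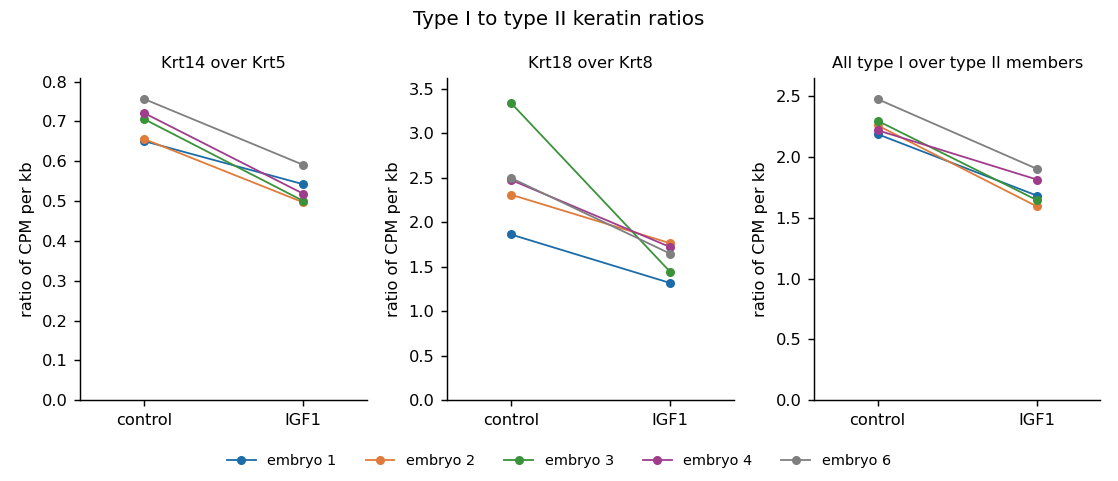
Ratios of CPM per kb (vertical axes, linear from 0) for Krt14 over Krt5, Krt18 over Krt8 and all type I over all type II members, in the control and IGF1 tooth of each embryo joined by a line. Every line falls, and in each panel the lowest control tooth is above the highest IGF1 tooth. The share of other gene ratios that do so was not computed.

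Basal and simple keratins were compared as the mean log2(CPM + 1) change of each class within embryos. The basal mean changed by 0.11, 0.15, 0.38, -0.05 and 0.45 in embryos 1, 2, 3, 4 and 6 (0.21 ± 0.20, mean ± SD). The simple mean changed by -0.17, 0.32, 0.23, -0.28 and 0.18 (0.06 ± 0.26). Basal minus simple was therefore 0.28, -0.17, 0.15, 0.23 and 0.27, or 0.15 ± 0.19, above 0 in 4 of 5 embryos and less than its spread. Without embryo 2 it was 0.23. The median edgeR log2 fold change was 0.23 for the 4 basal and 0.11 for the 3 simple keratins, against -0.004 for all genes tested, and both classes hold genes with changes of either sign.

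Each member was also read against the median change of 24 epithelial markers that are not keratins. That median was -0.05, 0.08, 0.25, -0.18 and 0.23 in embryos 1, 2, 3, 4 and 6 (0.07 ± 0.19), and like the basal and simple means it was lowest in embryo 4. Relative to it Krt5 was higher by 0.36 ± 0.09 and Krt8 by 0.28 ± 0.17, both in 5 of 5 embryos. The SD of the Krt5 change over embryos was 0.09 relative to the markers and 0.25 without them. The SD was also smaller relative to the markers for the other members except Krt18 (0.25 against 0.24), though little for Krt15 (0.433 against 0.455).

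Krt15 was above the markers by 0.39 ± 0.43, in 4 of 5 embryos. Krt18 stood at -0.34 ± 0.25 and Krt17 at -0.16 ± 0.12 relative to the markers, each below 0 in 4 of 5 embryos. Krt14 (-0.04 ± 0.13) and Krt19 (0.03 ± 0.20) stayed near the markers, with signs that varied between embryos and turned when single embryos were left out. Krt23 was at -1.12 ± 0.27, and at -1.93 with a pseudocount of 0.1 in place of 1 CPM.

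**Figure D5:**
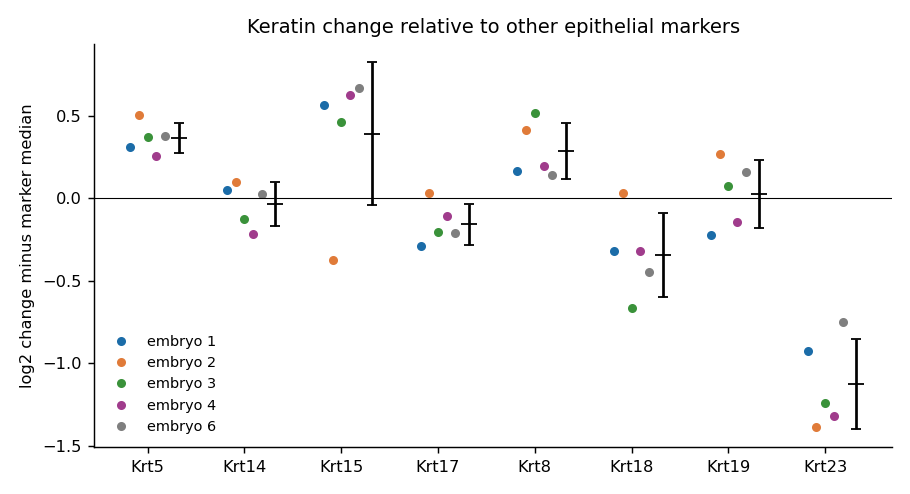
Log2(CPM + 1) change of each keratin minus the median change of 24 other epithelial markers in the same embryo (vertical axis); dots are embryos and black marks the mean and SD (n = 5). Krt5 and Krt8 are above 0 in 5 embryos and Krt23 below 0 in 5, while Krt14 and Krt19 scatter about 0.

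Not all of those markers held their level. Of the 24 tested, 0 rose and 4 fell at an adjusted p under 0.05 (edgeR), and their median log2 fold change was 0.07. Among these were Cldn1, a tight junction protein (log2 fold change -0.79 ± 0.13 SE), and Cdh3, P-cadherin (-0.33 ± 0.09). Cdh1, E-cadherin, was at 0.19 ± 0.10 (adjusted p = 0.240, edgeR).

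The keratin family had 30 rows in the table, of which 18 were tested and 12 had too few counts (10 to 151 over the 10 teeth). Among the 10 tested rows outside the members, 1 rose and 9 did not pass. The one that rose was Krt13, a type I keratin of the suprabasal cells of oral and other non-cornified epithelia. It stood at 38.5, 29.7, 30.5, 59.6 and 22.0 CPM in control and at 69.1, 42.4, 72.9, 79.3 and 56.0 CPM in IGF1, higher in 5 of 5 embryos with overlapping groups. The log2 fold change was 0.87 ± 0.14 SE (edgeR adjusted p = 0.00266), and the adjusted p was 0.0533 in the unpaired fit without the replicate block.

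The 9 others had values of either sign. Krt16 (0.76 ± 0.28, adjusted p = 0.109 by edgeR), Krt79 (0.75 ± 0.32, 0.159), Krt10 (0.40 ± 0.24, 0.328), Krt1 (0.28 ± 0.25, 0.528), Krt6a (0.26 ± 0.14, 0.287) and Krt7 (0.07 ± 0.17, 0.839) had positive log2 fold changes, given here with SE and adjusted p. Krt75 (-0.43 ± 0.24, 0.285), Krt4 (-0.14 ± 0.30, 0.825) and Krt80 (-0.13 ± 0.15, 0.622) had negative ones. Without embryo 4 Krt6a passed the test (log2 fold change 0.45, edgeR adjusted p = 0.0337). Without embryo 3 Krt7 turned negative, and without embryo 2 or 3 Krt4 turned positive. Krt6a, Krt16 and Krt17, the tested keratins of the stress and wound response list, numbered 3 with 0 called in either direction and a median of 0.26.

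Genes that work with keratins were read from lists. Keratins are anchored at desmosomes and, in basal cells, at hemidesmosomes. Among all genes tested 6.72% were higher and 4.76% lower. Of 21 genes tested on the anchoring list, which also holds the marker Epcam, 0 rose and 3 fell, with a median log2 fold change of -0.12. The 3 were Dst, whose epithelial form links keratin to the hemidesmosome (1136 ± 61.2 CPM in control and 775 ± 18.5 in IGF1, log2 fold change -0.55 ± 0.07 SE, edgeR adjusted p = 0.00056), Col17a1, a hemidesmosomal collagen (-0.54 ± 0.09, 0.0032), and Itgb4, the integrin subunit of hemidesmosomes (-0.50 ± 0.11, 0.0144). Each was lower in 5 of 5 embryos. Dst also has forms in muscle and neurons that these counts do not separate, and Itgb4 lost its call without embryo 1 or embryo 4. Dsp, which ties keratin to desmosomes, was at 1344 ± 170 CPM in control and 1334 ± 178 in IGF1 (log2 fold change -0.01 ± 0.10, edgeR adjusted p = 0.962), and Itga6, the partner of Itgb4, at -0.14 ± 0.09 (edgeR adjusted p = 0.342).

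Of 16 transcription factors known to act on keratin genes 1 rose and 3 fell, with a median of -0.15. Elf3, an epithelial ETS factor, rose from 4.94 ± 1.55 to 16.1 ± 9.74 CPM (log2 fold change 1.66 ± 0.34 SE, edgeR adjusted p = 0.01). Among those that fell were Tfap2c, an AP-2 factor, and Grhl1, a grainyhead-like factor, with log2 fold changes of -0.54 ± 0.10 and -0.54 ± 0.13 (edgeR adjusted p = 0.00472 and 0.022). The unpaired fit without the replicate block lost Tfap2c, and Grhl1 was lost with the DESeq2 Wald test or without embryo 1, 4 or 6. Trp63, the p63 gene of basal epithelial cells, was at 210.5 ± 20.7 CPM in control and 183 ± 35.0 in IGF1 (-0.21 ± 0.10, edgeR adjusted p = 0.234), and Klf5 at -0.07 ± 0.13 (edgeR adjusted p = 0.786).

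Of 19 genes of stratified differentiation 11 were tested, of which 2 rose and 0 fell, with a median of 0.28. Beside Krt13 it was Dsg1a, a desmosomal cadherin of upper epithelial layers, that rose (51.0 ± 6.71 to 74.7 ± 19.4 CPM, log2 fold change 0.53 ± 0.11 SE, edgeR adjusted p = 0.00866, and 0.0549 in the unpaired fit). Of 10 other intermediate filament genes tested Lmnb2, a nuclear lamin, rose (0.51 ± 0.09, edgeR adjusted p = 0.00487) and Vim, the filament of mesenchymal cells, fell (-0.42 ± 0.08, edgeR adjusted p = 0.00949, lost in the unpaired fit with an adjusted p of 0.0706).

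Markers of other cell types in the tooth were mostly lower where called. Their summed CPM below covers every listed gene in the table, tested or not, and no listed gene was at 0 in all teeth. Of 20 mesenchymal markers 0 rose and 4 fell (Vim, Pdgfra, Pdgfrb and Zeb2; median log2 fold change -0.11), and of 9 endothelial markers 2 fell (Cdh5 and Esam; median -0.25, summed CPM 413 to 471 in control and 332 to 438 in IGF1). Of 6 red cell genes tested 5 fell, all globins (median -0.49, summed CPM 850 to 1423 and 604 to 1110), and of 8 macrophage markers Csf1r fell (median -0.20, summed CPM 65.6 to 86.3 and 55.5 to 84.7). Of 3 glial and neuronal markers tested Tubb3 rose (median -0.03, summed CPM 81.9 to 109.6 and 77.1 to 102), and of 3 skeletal muscle markers 0 were called (median -0.53, summed CPM 26.8 to 106 and 14.9 to 138). The part of these shifts in the keratin values was not tested.

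Other genes with the profile of the keratins were sought among 10865 genes with a mean of at least 10 CPM, as the root mean square distance of centred log2 CPM over the 10 teeth from the mean profile of a class. Nearest to the basal class were Tyro3 (0.092), Celsr1 (0.098), Plch2 and Camkk2 (both 0.105) and Arhgef19 (0.109), while the median gene lay at 0.326. The members themselves lay farther off than these genes, Krt14 at 0.113, Krt5 at 0.139, Krt17 at 0.172 and Krt15 at 0.230. Nearest to the simple class were Tle3 (0.077), Trappc5 and Taf15 (both 0.081), Sufu (0.082) and Phlda3 (0.087), with a median of 0.258, and the members lay at 0.088 (Krt19), 0.178 (Krt8) and 0.213 (Krt18). None of these 10 genes was called, and their log2 fold changes ran from -0.05 (Sufu) to 0.25 (Tyro3 and Plch2).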

How the data were processed

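The deposited table held estimated counts per gene, made by the authors with Salmon 0.99.0 after FastQC 0.11.8 and Trimmomatic 0.39 (GRCm38, per the labels and the submitters' processing notes, which also name DESeq2). The transcript set, the filter on rows and the use of strand were not given in the sources used here. Counts were whole numbers (0 exceptions), the lowest total of a gene was 10, and all columns matched a sample. Of 18381 identifiers 18287 were in GENCODE mouse release 21, which gave symbols, lengths and positions, and 94 were not. Expected counts of genes with like sequence depend on how Salmon shared reads.

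Counts were filtered (filterByExpr), scaled by TMM and tested with edgeR 4.0.16 (R 4.3.3) by the quasi-likelihood test with the embryo as a replicate block, and p-values were Benjamini-Hochberg adjusted over 14504 genes. Pairing by embryo follows the titles and the culture protocol, which draw 1 control and 1 IGF1 tooth from each embryo; deviations from group means correlated within embryos 1, 2, 3, 4 and 6 at 0.359, 0.252, -0.03, 0.211 and 0.349, against a median of -0.06 between embryos. Embryos are separate animals, and teeth within a group differed beyond sampling noise (chi-square per degree of freedom 4.47 to 19.4). The fit was tested on simulated data. Alternatives were DESeq2 1.42.0 (size factors or Wald test), limma-voom (limma 3.58.1), no filter or 1 CPM in 5 samples, no block, each embryo left out, a pseudocount of 0.1 for 1 CPM, and transcript length. Changes within embryos are on the log2(CPM + 1) scale, which understates those of scarce genes. Depth limits precision at low counts, and the SD of a share of counts is the spread over 5 teeth.

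Named were the 8 members, every other tested keratin, the called genes of each pathway list (at most 8 a list, by smallest p), and the 5 genes nearest each class profile. Marker genes are named beside their list's counts, and a few genes of the lists are counted but not reported here by name. Members and lists were chosen with earlier results of these data known. Promoter windows came from RefSeq (GRCm38.p6), which held 5 of the 8 members, and those of Krt8 and Krt18, whose starts lie 140 and 36 bases inside the GENCODE gene, are described but not shown, and that of Krt14, whose start lies 1518 bases inside, was not used. The paper given for style does not describe this experiment, and nothing was taken from it.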

Additional observations from a re-analysis of the deposited data

Results flagged for a closer look

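In the control group, Krt10, a type I keratin of suprabasal epidermis, stood at 6.87 CPM in embryo 1 and between 2.72 and 3.83 CPM in the other 4 control teeth. The gap between that tooth and the nearest one is 0.732 of the group's range, above Dixon's critical value of 0.71 for 5 samples. Of 42 groups of 5 teeth examined in this way 1 held such a tooth, and chance gives about 1 in 20, or 2.1 of 42. The IGF1 tooth of embryo 1 was also the highest of its group, at 10.1 CPM against 2.85 to 5.74 CPM. Both teeth of embryo 1 had the shallowest library of their group.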

How the results depend on the processing

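The number of genes called depended most on the pairing: 1666 genes were called with the embryo as a replicate block and 887 without it (556 higher and 331 lower). Leaving out 1 embryo gave 986 to 1602 genes, with 595 to 924 higher and 383 to 678 lower, the fewest in all without embryo 4. Of the 8 keratins 2 were called, 1 with the DESeq2 Wald test (Krt5, as Krt23 had no adjusted p), 1 without the replicate block (Krt23), and 1 (without embryo 6) to 4 (without embryo 2) when 1 embryo was left out. Over up to 11 alternatives a gene, 78 of 87 values of the members kept their direction and side of the threshold, 3 lost a call, 4 gained one and 2 turned in sign; for 30 other named genes these numbers were 303, 14, 1 and 12 of 330. Every turn of sign came from leaving out 1 embryo in genes near 0. The log2 fold changes then ran from -0.0273 to 0.1435 (Krt14), -0.0854 to 0.1616 (Krt7), -0.2643 to 0.0483 (Krt4), -0.0049 to 0.1932 (Celsr1), -0.0216 to 0.0610 (Tle3), -0.0226 to 0.1129 (Trappc5), -0.1027 to 0.0106 (Sufu) and -0.0072 to 0.1643 (Phlda3). Relative to the epithelial markers Krt14 ran from -0.0691 to 0.0106 and Krt19 from -0.0343 to 0.0877. The partner ratios stayed negative in all alternatives run for them, from -0.43 to -0.37 for Krt14 over Krt5 and from -0.69 to -0.49 for Krt18 over Krt8. The cause of each change was not tested. Depth limits Krt23 most, with 1 to 27 counts a tooth.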

Other observations

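Among the 12 keratin rows with too few counts for the test, Krt24, another type I keratin, was at 0.860 ± 0.282 CPM (SD, n = 5) in control and 2.22 ± 0.680 CPM in IGF1. It was higher with IGF1 in 5 of 5 embryos, and the groups did not overlap. It had 2 to 9 counts a tooth in control and 11 to 17 in IGF1. The shares of genes given above for either trait cover tested genes only. Krt24 was chosen after its values were seen and has no test.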
